A study of Mus musculus with 4 samples.

Results

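The genes described here write, remove and read methyl groups on lysines K9 and K36 of histone H3 and on DNA. They are 34 genes taken by symbol from a list of named members: 6 H3K9 methyltransferases, 7 demethylases of H3K9 or related lysines, 8 HP1 proteins, readers and corepressors, 5 H3K36 methyltransferases, 2 H3K36 demethylases, the Atrx and Daxx pair, and 4 genes of DNA methylation. All 34 were found among the 14159 genes of the table, and all 34 passed the filter on low values. Dnmt3b passed it through the control libraries alone and so had to be lower in knockout; its values are a description and no support for a count. Polyadenylated RNA was sequenced from primary squamous cell carcinomas of mice, which were not cultured. In 2 libraries Kdm4a, which encodes an H3K9 and H3K36 demethylase, had been knocked out inducibly, and 2 libraries were labelled control. The sources used here do not state the driver or agent of the inducible knockout, what the control tumours carry, the strain or age of the mice, or whether each library is a mouse or tumour of its own. P-values thus cover only the spread between these libraries, which may be technical. Both control columns carry the same name, and they are called control a and control b.

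H3K9 methylation is placed by SET-domain enzymes, is bound by HP1 proteins and marks silent chromatin, repeats and retroelements. H3K36 methylation follows elongating RNA polymerase or spreads over intergenic regions, and it guides the de novo DNA methyltransferases. Maintenance DNA methylation depends on UHRF1, which brings DNMT1 to newly replicated DNA. KDM4A removes methyl groups from both histone residues, so its knockout bears on substrates that these 34 genes set and read.

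Kdm4a itself stood at 14.9 and 14.7 FPKM (fragments of a transcript, scaled by its length and by the library's mapped fragments) in the knockout libraries, against 29.6 and 27.7 FPKM in the control libraries. Its relative Kdm4c stood at 6.99 and 6.66 FPKM in knockout, against 15.8 and 14.2 FPKM in control, and Kdm4b at 5.24 and 4.53 FPKM, against 4.61 and 4.67 FPKM. The transcript of Kdm4a thus remained at 0.517 times the control mean. On the log2(FPKM + 1) scale libraries of different groups differed by a median of 0.46 to 0.49 over the 12046 genes tested, the knockout libraries from each other by 0.14 and the control libraries by 0.07. The tissue label was checked on 15 markers of squamous epithelium: Krt5 had 1285 and 1188 FPKM in knockout and 2301 and 2370 FPKM in control, and the summed level of the list was 5281 and 5185 FPKM, against 8030 and 8285 FPKM. Read depth is unknown, and in whole tumours fewer cells of a type and less RNA per cell cannot be told apart.

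Among the 34 genes, 7 were higher and 12 lower in knockout, and 15 did not pass the test (limma on log2(FPKM + 1), Benjamini-Hochberg adjusted p under 0.05 over all genes tested). The share called was 55.9%, and over all genes tested 63.9% were called, 30.1% higher and 33.8% lower. The number of calls is therefore no result about these genes, and what follows describes which of them moved. Without Dnmt3b 11 of 33 were lower (33.3%), and without all genes that passed the filter through 1 group alone 33.3% of the genes tested were lower. Their median log2 fold change was -0.03, the same as that of all genes tested, with a range from -1.45 to 1.07. The genes that rose were Setdb2, Suv39h1, Kdm3a, Cbx5, Atrx, Uhrf1 and Kdm1a. The genes that fell were Phf2, Cdyl, Nsd1, Dnmt3a, Whsc1, Kdm2b, Kdm2a, Dnmt3b, Atf7ip, Kdm1b, Mphosph8 and Ehmt2. For 29 of the 34 the knockout libraries both lay above or both below the control libraries, against 83.9% of all genes tested. The 5 genes whose groups overlapped were Kdm3b, Cbx3, Whsc1l1, Ash1l and Dnmt1.

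**Figure D1:**
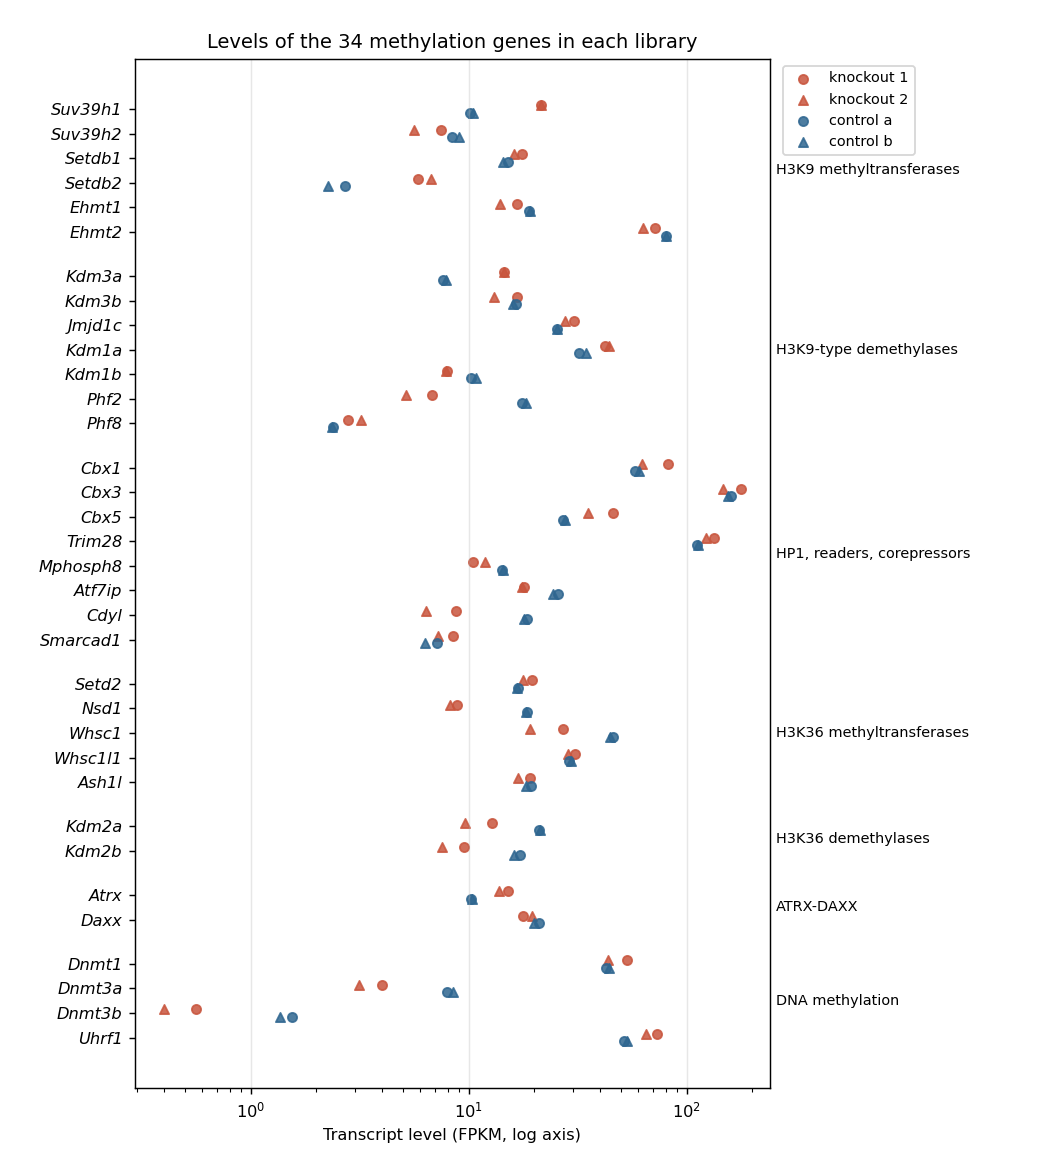
Transcript levels of the 34 genes in FPKM on a log axis, grouped by role, with 1 point for each library (knockout in red, control in blue). Phf2, Cdyl, Nsd1, Kdm2a, Kdm2b and Dnmt3a lie well to the left in knockout, and Suv39h1, Setdb2 and Kdm3a to the right.

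The calls on Suv39h1, Setdb2, Kdm3a, Phf2, Cdyl, Nsd1, Whsc1, Kdm2a, Kdm2b and Dnmt3a held under all 13 alternative settings. Apart from these and Dnmt3b, every called gene lost its call under at least 1 setting, among them Kdm1a without control a (adjusted p = 0.0936). Transcript length moved with the comparison. The median log2 fold change of all genes tested was 0.05 for transcripts of 2000 to under 4000 nt, -0.19 for 4000 to under 6000 nt and -0.46 for 8000 nt or more, and the median transcript of the 34 genes was 5337 nt, against 3255 nt over all genes tested. After the trend with length was removed in each library, 16 of the 34 were higher and 9 lower in knockout, against 32.4% and 31.5% of all genes. The 9 genes added, all higher, were Setdb1, Jmjd1c, Phf8, Trim28, Smarcad1, Setd2, Whsc1l1, Ash1l and Dnmt1, and the calls on Ehmt2, Kdm1b and Atf7ip were lost. The part of length in these results was not tested further.

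**Figure D2:**
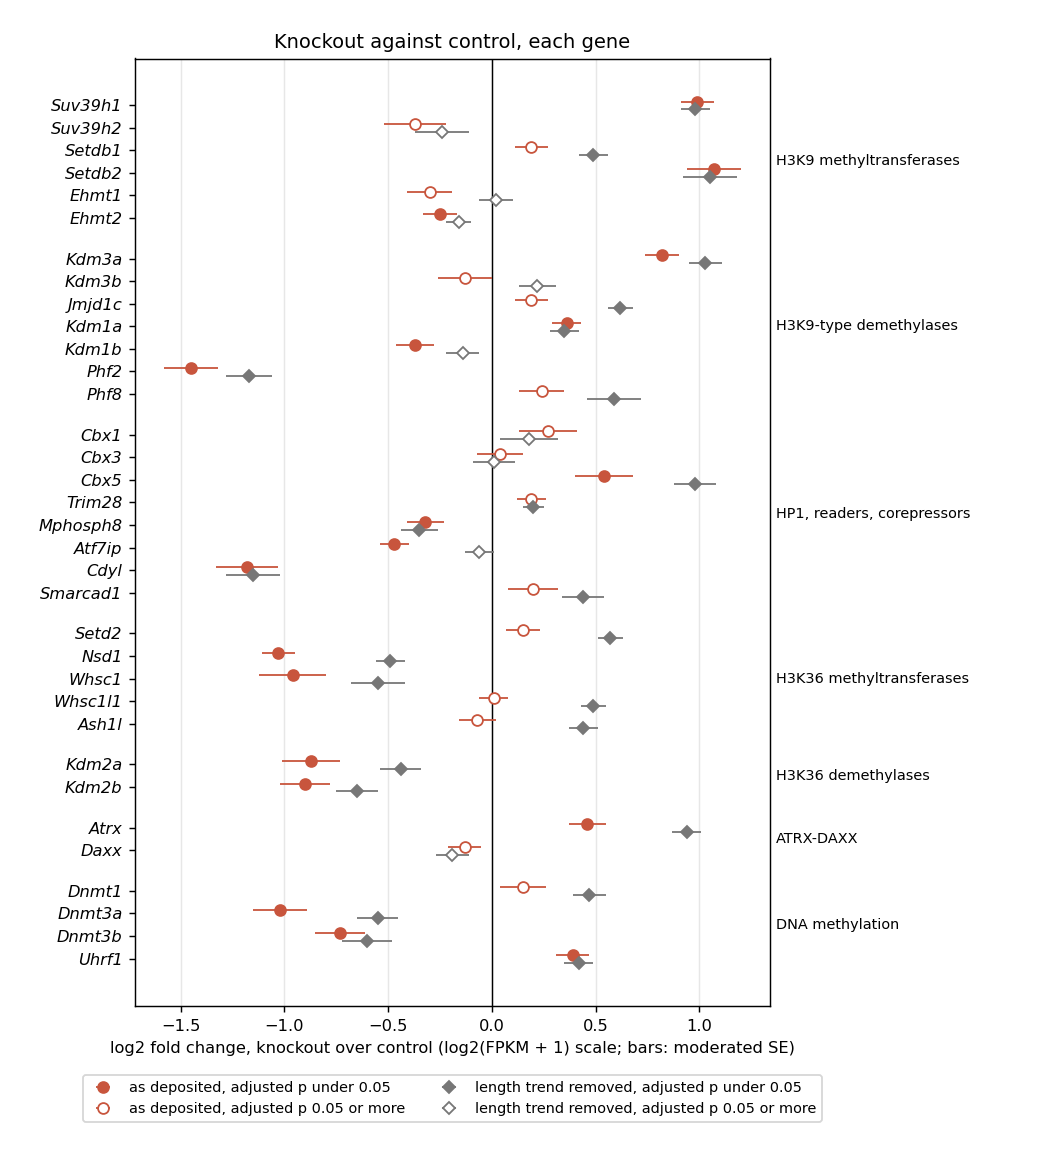
Log2 fold change of each gene, knockout over control, with limma's moderated standard error as bars. Red circles are the values as deposited and grey diamonds those after removal of the length trend, filled where the adjusted p is under 0.05. Suv39h1, at 0.99 and 0.98, and Cdyl, at -1.18 and -1.15, scarcely move, whereas Setd2 is at 0.15 and 0.57 and Atf7ip at -0.47 and -0.06.

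Promoters of genes that rose and of genes that fell are shown to set their sequences side by side. RefSeq promoters of GRCm38.p6 were found for 28 of the 34 genes; Kdm3b, Nsd1, Whsc1, Whsc1l1, Ash1l and Kdm2a were not matched. Of the called genes, 6 had no annotated exon in the 150 bases before their most upstream start; 3 of them rose (Suv39h1, Cbx5, Kdm1a) and 3 fell (Dnmt3a, Dnmt3b, Kdm1b). Their sequences run 5′ to 3′ along the gene's strand and end at the base before the start. Capitals mark CCAAT boxes (CCAAT or its reverse ATTGG) and GC boxes (GGGCGG or its reverse CCGCCC). A pair of GC boxes in Dnmt3b adjoin. The windows were searched on both strands.
Suv39h1, chrX:8074761-8074910, minus strand: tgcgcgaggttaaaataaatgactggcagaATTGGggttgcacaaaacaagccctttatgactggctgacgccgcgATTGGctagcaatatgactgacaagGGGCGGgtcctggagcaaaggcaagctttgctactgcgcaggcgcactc
Cbx5, chr15:103239853-103240002, minus strand: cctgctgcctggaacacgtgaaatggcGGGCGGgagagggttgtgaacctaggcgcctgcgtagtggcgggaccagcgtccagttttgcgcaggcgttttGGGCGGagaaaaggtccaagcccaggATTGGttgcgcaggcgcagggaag
Kdm1a, chr4:136602724-136602873, minus strand: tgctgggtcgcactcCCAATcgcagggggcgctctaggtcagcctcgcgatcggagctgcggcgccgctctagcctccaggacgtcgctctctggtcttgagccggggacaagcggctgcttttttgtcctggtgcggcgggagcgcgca
Dnmt3a, chr12:3806830-3806979, plus strand: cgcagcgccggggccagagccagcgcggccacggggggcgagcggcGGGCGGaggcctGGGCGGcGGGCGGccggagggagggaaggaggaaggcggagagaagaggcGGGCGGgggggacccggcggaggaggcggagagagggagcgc
Dnmt3b, chr2:153649299-153649448, plus strand: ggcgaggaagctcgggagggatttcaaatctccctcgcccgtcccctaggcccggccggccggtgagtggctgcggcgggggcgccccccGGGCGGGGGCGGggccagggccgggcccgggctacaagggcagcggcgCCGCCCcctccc
Kdm1b, chr13:47043349-47043498, plus strand: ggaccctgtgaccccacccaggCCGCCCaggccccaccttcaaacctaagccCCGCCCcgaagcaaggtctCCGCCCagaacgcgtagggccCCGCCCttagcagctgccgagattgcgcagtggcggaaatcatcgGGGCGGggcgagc

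The Suv39h1 window holds 2 CCAAT boxes and 1 GC box, that of Cbx5 1 and 2, and that of Kdm1a 1 CCAAT box and no GC box. The windows of Dnmt3a, Dnmt3b and Kdm1b hold no CCAAT box and 4, 3 and 5 GC boxes. Over the 250 bases before any start, a CCAAT box was found in 7 of the 7 genes that rose and in 3 of the 9 that fell and had a promoter in the table (Mphosph8, Atf7ip and Kdm2b). A GC box was found in 4 of those 7 and in 9 of those 9. Dnmt3b is among the 9 but was tested through control alone, so it is no support. Cbx5, Atrx, Uhrf1 and Kdm1a of the genes that rose lost their call under at least 1 setting. So did Ehmt2, Kdm1b, Mphosph8 and Atf7ip of those that fell. Of the genes higher only after removal of the length trend, Setdb1, Phf8 and Dnmt1 held a CCAAT box. Jmjd1c, Trim28, Smarcad1 and Setd2 held none. Of the 12 genes with a promoter that did not pass, 4 held a CCAAT box and 11 a GC box, shares close to those of the genes that fell. Both motifs were counted after the fold changes were seen. Over all genes tested with a promoter, a CCAAT box was found for 41.4% of the genes higher in knockout and 38.9% of those lower, and a GC box for 60% and 70.8%, and over all 32841 promoters in the table the shares were 33.9% and 32.7%. The CCAAT shares of all genes thus lay close to each other. The E2F core, searched as TTCCCGC and as the variant motif TTGGCGC on both strands, was found in 5 of the 28 genes (17.9%), Suv39h2, Jmjd1c, Cbx3, Trim28 and Uhrf1, and in 11.9% of all genes tested with a promoter. Of these 5 Uhrf1 alone rose in the fit as deposited. A match is a description of these letters and not of a bound site.

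Of the 6 H3K9 methyltransferases 2 rose, Suv39h1 and Setdb2, and 1 fell, Ehmt2 (33.3% and 16.7%, against 30.1% and 33.8% of all genes tested). Suv39h1, an enzyme of pericentric H3K9 trimethylation, had 21.5 and 21.4 FPKM in knockout and 10.1 and 10.5 FPKM in control. The knockout libraries agreed closely and both lay about 2.08 times as high as control (log2 fold change 0.99, SE 0.08, adjusted p = 0.000683). Its paralog Suv39h2 had 7.46 and 5.58 FPKM in knockout and 8.36 and 8.99 FPKM in control, a difference of -0.37 that did not pass (adjusted p = 0.0777). Setdb2, a low-level SET-domain gene linked to antiviral and inflammatory responses, had 5.86 and 6.73 FPKM in knockout and 2.71 and 2.25 FPKM in control (2.54 times; log2 fold change 1.07, SE 0.13, adjusted p = 0.00197). Setdb1, which silences retroelements together with Trim28, had 17.6 and 16.2 FPKM in knockout, against 15.1 and 14.3 FPKM in control. Its groups did not overlap, but the difference of 0.19 did not pass (adjusted p = 0.109), with a 95% interval of -0.03 to 0.40; after removal of the length trend it was 0.49 (adjusted p = 0.00352). Ehmt1 and Ehmt2, which encode the GLP and G9a enzymes of H3K9 mono- and dimethylation, were both lower in each knockout library. Ehmt2 had 71.8 and 63.0 FPKM in knockout and 80.5 and 80.02 FPKM in control (-0.25, adjusted p = 0.0449), a call lost under 6 of 13 alternatives, and Ehmt1 had 16.7 and 13.9 FPKM in knockout, against 18.8 and 19.2 FPKM in control (-0.30, adjusted p = 0.0596). After removal of the length trend Ehmt1 was at 0.02 (adjusted p = 0.85) and Ehmt2 at -0.16 (adjusted p = 0.0812), so that their shared direction was lost.

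Of the demethylases, Kdm3a rose and Phf2 fell. Kdm3a, a JmjC demethylase of H3K9 mono- and dimethylation that hypoxia induces, had 14.5 FPKM in both knockout libraries and 7.65 and 7.90 FPKM in control (log2 fold change 0.82, SE 0.08, adjusted p = 0.00123). Its relatives Kdm3b and Jmjd1c did not pass: Kdm3b had 16.6 and 13.1 FPKM in knockout and 16.4 and 16.0 FPKM in control (-0.13, adjusted p = 0.402), and Jmjd1c 30.5 and 27.6 FPKM, against 25.3 and 25.5 FPKM (0.19, adjusted p = 0.095; 0.62 after removal of the length trend, adjusted p = 0.00113). In control Kdm3a lay below Kdm3b, and in knockout the pair were close. The flavin-dependent demethylases moved in opposite directions. Kdm1a, which acts in the CoREST complex, had 42.2 and 43.9 FPKM in knockout and 32.1 and 34.5 FPKM in control (0.36, adjusted p = 0.0096), and Kdm1b, which acts on gene bodies, had 7.95 and 7.84 FPKM, against 10.2 and 10.8 FPKM (-0.37, adjusted p = 0.017; -0.14 after removal of the length trend, adjusted p = 0.188). Exons of Kdm1b share 505 bases, 9.19% of its exon bases, with Dek on the opposite strand. Whether the authors counted by strand is not stated, so the reads of this pair may not be separable. The same limit holds for larger shares on the opposite strand in Kdm3b (24.6%, Gm26538), Suv39h1 (14.6%, Gm14820) and Mphosph8 (10.7%, Gm16973). Phf2, a JmjC protein that binds H3K4 methylation and acts on H3K9 dimethylation, had the lowest log2 fold change of the 34 genes on the log2(FPKM + 1) scale, although the FPKM ratio of Dnmt3b was slightly lower. It had 6.76 and 5.16 FPKM in knockout and 17.5 and 18.3 FPKM in control, 0.333 times as much (log2 fold change -1.45, SE 0.13, adjusted p = 0.00102). Phf8, a relative of low level, had 2.78 and 3.19 FPKM in knockout and 2.38 and 2.35 FPKM in control (0.24, adjusted p = 0.111; 0.59 after removal of the length trend, adjusted p = 0.0141).

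HP1 genes were among the most abundant of the 34. Cbx3, which encodes HP1 gamma and has annotated pseudogene copies that could take or give reads, ranked first in both groups, with 177 and 146 FPKM in knockout and 159 and 154 FPKM in control. The groups overlapped and the 95% interval of the log2 fold change ran from -0.24 to 0.31. Cbx5, which encodes HP1 alpha, rose: 46.0 and 35.2 FPKM in knockout and 27.2 and 27.5 FPKM in control (log2 fold change 0.54, SE 0.14, adjusted p = 0.0203). That call was lost without control a (adjusted p = 0.061) or control b (0.058), and after removal of the length trend the difference was 0.98 (adjusted p = 0.0013). Cbx1, the HP1 beta gene, had 82.0 and 62.4 FPKM in knockout and 58.0 and 60.2 FPKM in control (0.27, adjusted p = 0.14). Trim28, the corepressor that zinc finger proteins recruit to retroelements, had 133 and 123 FPKM in knockout and 111 and 113 FPKM in control, a difference of 0.19 (adjusted p = 0.0571; 0.20 after removal of the length trend, adjusted p = 0.0289).

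The readers and cofactors Cdyl, Atf7ip and Mphosph8 fell. Cdyl, a chromodomain corepressor, had 8.74 and 6.39 FPKM in knockout and 18.6 and 17.96 FPKM in control, 0.414 times as much (log2 fold change -1.18, SE 0.15, adjusted p = 0.00237). Atf7ip, the partner that stabilises SETDB1, had 18 and 17.5 FPKM in knockout and 25.6 and 24.4 FPKM in control (-0.47, adjusted p = 0.00436; -0.06 after removal of the length trend, adjusted p = 0.521). Mphosph8, the chromodomain subunit of the HUSH silencing complex, had 10.5 and 11.9 FPKM in knockout and 14.2 and 14.3 FPKM in control (-0.32, adjusted p = 0.0321). The call on Mphosph8 was lost with quantile normalization and without either control library (adjusted p up to 0.191). Smarcad1, a remodeller that restores H3K9 methylation after replication, had 8.51 and 7.21 FPKM in knockout and 7.18 and 6.27 FPKM in control (0.20, adjusted p = 0.219; 0.44 after removal of the length trend, adjusted p = 0.0174).

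Of the 7 H3K36 genes Nsd1, Whsc1, Kdm2a and Kdm2b fell and none rose in the fit as deposited, where 33.8% of all genes tested fell, and 58% of those with transcripts of 8000 nt or more, a length that 5 of the 7 reach. Nsd1, an enzyme of H3K36 dimethylation, had 8.85 and 8.24 FPKM in knockout and 18.6 and 18.3 FPKM in control, 0.463 times as much (log2 fold change -1.03, SE 0.08, adjusted p = 0.000739). Whsc1, also called Nsd2, had 27.2 and 19.2 FPKM in knockout and 46.0 and 44.7 FPKM in control (-0.96, SE 0.16, adjusted p = 0.00607). The remaining member of that family, Whsc1l1 or Nsd3, lay at 30.6 and 28.4 FPKM in knockout and at 29.0 and 29.4 FPKM in control, with a 95% interval of -0.17 to 0.20, and after removal of the length trend its difference was 0.49 (adjusted p = 0.00212). Setd2, the enzyme of H3K36 trimethylation, had 19.6 and 17.8 FPKM in knockout and 16.8 and 16.7 FPKM in control (0.15, adjusted p = 0.178; 0.57 after removal of the length trend, adjusted p = 0.00172). Ash1l, a further H3K36 methyltransferase, had 19.1 and 16.8 FPKM in knockout and 19.4 and 18.3 FPKM in control, and its difference of -0.07 as deposited (adjusted p = 0.538) was 0.44 after removal of the length trend (adjusted p = 0.00425). The demethylases of H3K36 dimethylation fell together. Kdm2a had 12.8 and 9.57 FPKM in knockout and 20.9 and 21.3 FPKM in control (-0.87, SE 0.14, adjusted p = 0.00533), and Kdm2b, which also tethers a Polycomb complex to CpG islands, had 9.48 and 7.55 FPKM, against 17.1 and 16.2 FPKM (-0.90, SE 0.12, adjusted p = 0.00303). Nsd1 has the longest transcript of the 34 genes, 12784 nt, and after removal of the length trend the log2 fold changes of Nsd1, Whsc1, Kdm2a and Kdm2b were -0.49, -0.55, -0.44 and -0.65, each still past the threshold.

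ATRX and DAXX deposit the histone variant H3.3 at repeats. Atrx had 15.2 and 13.8 FPKM in knockout and 10.2 and 10.3 FPKM in control (log2 fold change 0.46, SE 0.09, adjusted p = 0.00883), a call lost without either control library (highest adjusted p 0.0736). Its long transcript of 10275 nt puts it in a class whose median was -0.46, and after removal of the length trend its difference was 0.94 (adjusted p = 0.000672). Daxx had 17.7 and 19.5 FPKM in knockout and 20.9 and 19.97 FPKM in control (-0.13, adjusted p = 0.224).

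Of the DNA methylation genes Uhrf1 rose and Dnmt3a fell, Dnmt1 did not pass, and Dnmt3b was tested through control alone. Uhrf1, which recognises hemimethylated DNA, had 73.1 and 64.8 FPKM in knockout and 51.6 and 53.3 FPKM in control (log2 fold change 0.39, SE 0.08, adjusted p = 0.0112). That call was lost without control a or b (highest adjusted p 0.0688). Dnmt1, the maintenance methyltransferase, had 53.3 and 43.7 FPKM in knockout and 42.8 and 43.8 FPKM in control. Knockout 2 lay within the control range, knockout 1 above it, and the difference of 0.15 did not pass (adjusted p = 0.26; 95% interval -0.12 to 0.43); after removal of the length trend it was 0.47 (adjusted p = 0.0058). The de novo methyltransferase Dnmt3a fell to 3.98 and 3.15 FPKM in knockout, against 7.93 and 8.48 FPKM in control, 0.435 times as much (log2 fold change -1.02, SE 0.13, adjusted p = 0.00233). Its transcript is 9685 nt long, and after removal of the length trend the difference was -0.55 (adjusted p = 0.00739). Dnmt3b, the other de novo enzyme and the lowest of the 34 genes in both groups, had 0.558 and 0.40 FPKM in knockout and 1.54 and 1.36 FPKM in control (-0.73, adjusted p = 0.0055). With a pseudocount of 1 that difference understates the ratio, which was 0.331 on the FPKM scale.

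Ratios between related genes within a library do not depend on scaling between libraries. Suv39h1 stood at 2.88 and 3.84 times Suv39h2 in knockout and at 1.21 and 1.17 times in control. Whsc1 stood at 0.887 and 0.678 times Whsc1l1 in knockout and at 1.59 and 1.52 times in control, so that the order of these H3K36 methyltransferases by level was opposite in the 2 groups. Phf2 was 2.43 and 1.62 times as abundant as Phf8 in knockout and 7.36 and 7.78 times in control. Kdm3a reached 0.875 and 1.11 times Kdm3b in knockout, against 0.465 and 0.495 times in control. Dnmt3a was 0.0748 and 0.0721 times as abundant as Dnmt1 in knockout and 0.185 and 0.194 times in control. Ratios of Ehmt1 to Ehmt2 (0.233 and 0.22 in knockout, 0.234 and 0.24 in control) and of Kdm2b to Kdm2a (0.739 and 0.789, against 0.818 and 0.762) lay close together in all 4 libraries. With 2 libraries in each group an exact permutation test cannot go below p = 0.333, so these ratios, of pairs chosen after their values were seen, are given without a test.

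**Figure D3:**
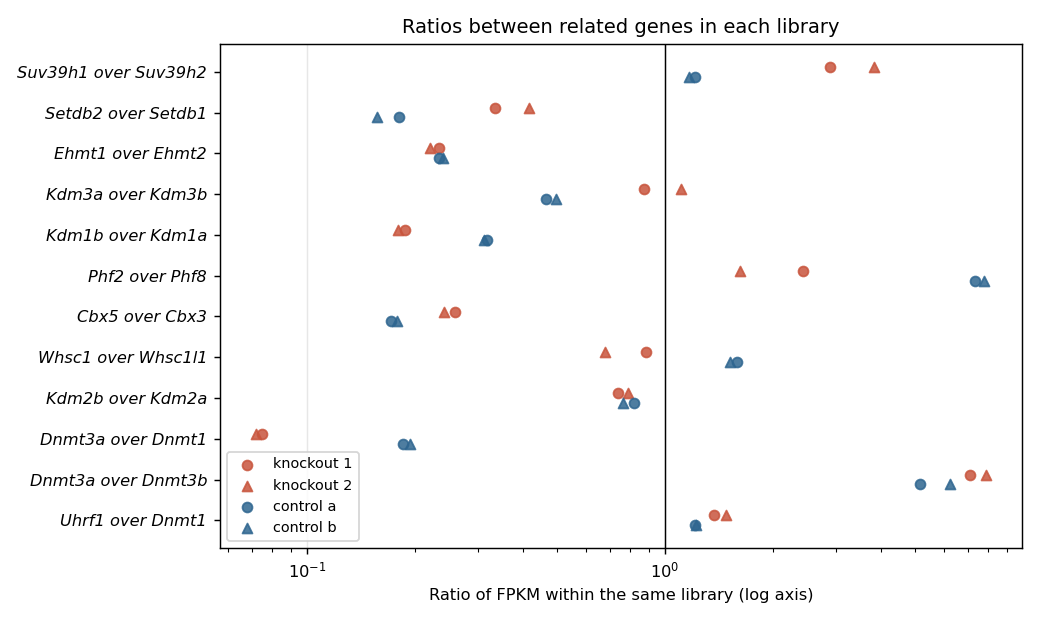
Ratio of the FPKM values of 2 related genes within the same library, on a log axis, knockout in red and control in blue. Of the 12 ratios, those of Phf2 to Phf8, Suv39h1 to Suv39h2 and Dnmt3a to Dnmt1 lie far apart between the groups, and those of Ehmt1 to Ehmt2 and Kdm2b to Kdm2a do not.

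The levels of the 34 genes spanned a wide range, and the order of several changed between the groups. By control mean the highest were Cbx3 (157 FPKM), Trim28 (112 FPKM) and Ehmt2 (80.3 FPKM) and the lowest Setdb2 (2.48 FPKM), Phf8 (2.36 FPKM) and Dnmt3b (1.45 FPKM). Phf2 ranked 31 in knockout and 19 in control, Cdyl 28 and 18, and Kdm2a 23 and 13. Suv39h1 ranked 12 in knockout and 26 in control, and Kdm3a 20 and 30. Summed over the 34 genes, the level was 1038 and 904 FPKM in knockout and 971 and 970 FPKM in control, so that the total in control lay between the knockout libraries. Knockout 2 lay below knockout 1 for 29 of the 34 genes (85.3%), with a median log2 difference of -0.16, whereas over all genes tested it was lower for 58%, with a median of -0.04. The other pathway genes described below shared this, with knockout 2 lower for 85.2% of 61 and a median of -0.12. How many of the 34 genes were called changed with the library left out, as did the number over all genes, so it is no result about these genes.

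Other genes of the same pathways were taken from lists written with earlier results known. Of 61 tested, 11 were higher and 28 lower in knockout, 18% and 45.9%, against 30.1% and 33.8% of all genes tested. Without genes that passed the filter through 1 group alone, 10 of 58 were higher and 27 lower (17.2% and 46.6%). The shares of all genes tested were then 29.4% and 33.3%. After removal of the length trend the counts of other pathway genes were 20 and 26, where 32.4% of all genes were higher and 31.5% lower. Among 19 other H3K9 genes 4 were higher and 6 lower. Atf7ip2, a relative of Atf7ip, had 9.66 and 7.59 FPKM in knockout and 0.716 and 0.84 FPKM in control, 11.1 times as much (log2 fold change 2.43). It passed the filter through the knockout libraries alone and so had to be higher, and without such genes 3 of 17 rose and 6 fell. Lrwd1, a partner of the replication origin complex at heterochromatin, stood at 41.7 ± 1.28 FPKM in knockout and 21.0 ± 0.138 FPKM in control, and Chaf1b, a subunit of the replication-coupled chromatin assembly factor, at 18.9 ± 1.41 and 7.47 ± 0.332 FPKM (SD, n = 2 each). Partners of members, chosen after their values were seen, included Rcor1, the CoREST scaffold of KDM1A, at 14.8 and 11.2 FPKM in knockout and 28.5 and 29.4 FPKM in control, and Glyr1, the cofactor of KDM1B, at 15.3 and 13.8 FPKM, against 20.6 and 19.6 FPKM. Rcor1 thus fell (-1.11, adjusted p = 0.00225) while Kdm1a rose, and Glyr1 fell (-0.44, adjusted p = 0.00934) as Kdm1b did.

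Among 13 other H3K36 genes 1 was higher and 6 lower (7.69% and 46.2%, against 30.1% and 33.8% of all genes tested). Of the 6, Kdm8, passed the filter through control alone and had to be lower, which leaves 1 higher and 5 lower of 12. The gene that rose was Psip1, whose product LEDGF binds H3K36 methylation, with 82.2 and 61.6 FPKM in knockout and 39.5 and 36.2 FPKM in control (log2 fold change 0.89, SE 0.15, adjusted p = 0.00541). The H3K36 methyl reader Zmynd11 fell (23.8 ± 1.26 FPKM in knockout, 33.6 ± 1.22 FPKM in control, SD, n = 2 each; adjusted p = 0.00467), as did 2410016O06Rik, the gene symbol of the JmjC oxygenase NO66 (7.29 ± 1.15 and 19.1 ± 0.327 FPKM; -1.29, adjusted p = 0.00104). Among 20 other genes of DNA methylation and demethylation 2 rose and 12 fell, 10% and 60%, against the same 30.1% and 33.8% of all genes tested. The genes that rose were Hells, a remodeller needed for DNA methylation of repeats, with 57.2 and 57.9 FPKM in knockout and 25.5 and 27.3 FPKM in control (1.10, adjusted p = 0.000483), and Pcna, the replication clamp, with 414 and 437 FPKM, against 201 and 192 FPKM (1.11, adjusted p = 0.000451). The methyl-DNA binding factor Zbtb4 fell to 1.31 and 1.63 FPKM in knockout, against 5.43 and 5.57 FPKM in control (-1.40, adjusted p = 0.000787). After removal of the length trend it was at -0.99 (adjusted p = 0.00377). The dioxygenases Tet2 and Tet3, which start DNA demethylation and were chosen after their values were seen, had 3.82 ± 0.0413 and 4.37 ± 0.546 FPKM in knockout and 7.97 ± 0.11 and 9.52 ± 0.22 FPKM in control (SD, n = 2 each). Their log2 fold changes were -0.90 and -0.97 (adjusted p = 0.00134 and 0.00183). Their transcripts of 9179 and 10904 nt fall in the class of 8000 nt or more, whose median was -0.46.

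Of 9 genes of H3.3 and its chaperones 4 rose and 4 fell, 44.4% each, where 30.1% of all genes tested rose and 33.8% fell. The histone chaperone Asf1b rose most, with 40.1 ± 0.14 FPKM in knockout and 7.91 ± 0.989 FPKM in control (SD, n = 2 each) (log2 fold change 2.21, SE 0.10, adjusted p = 0.000323), and Dek, which binds H3.3 chromatin, had 111 and 93.6 FPKM, against 51.9 and 51.7 FPKM (0.96, adjusted p = 0.00128). Ubn1, a subunit of the HIRA complex, fell to 5.35 and 5.06 FPKM in knockout, against 16.3 and 15.3 FPKM in control (-1.44, adjusted p = 0.000483).

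**Figure D4:**
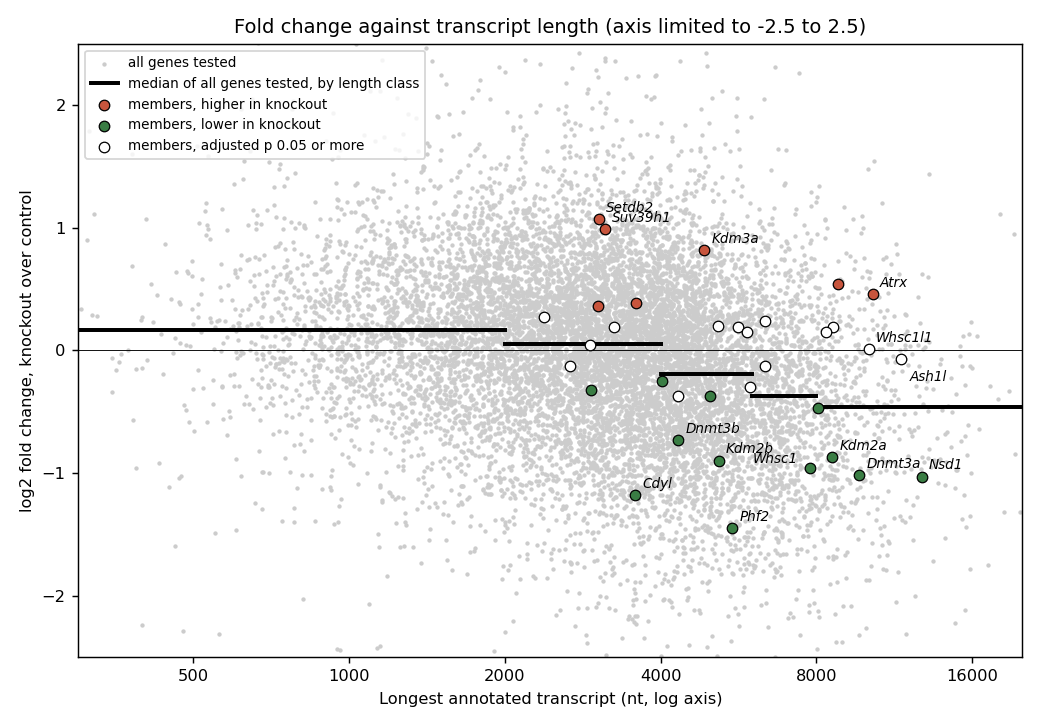
Log2 fold change, knockout over control, against the longest annotated transcript in nt on a log axis. Grey points are all genes tested, black bars their median in 5 length classes, and large points the 34 genes coloured by call; Atrx lies above the median of -0.46 for transcripts of 8000 nt or more, and Nsd1 and Dnmt3a below it.

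Calls are given by length class beside all genes. Of the 10 genes with transcripts of 8000 nt or more, 2 were higher and 4 lower in knockout, with a median of -0.03, whereas 12.9% of the 607 genes of that length were higher and 58% lower. Of the 10 genes with transcripts of 2000 to under 4000 nt, 4 were higher and 2 lower (median 0.23), against 34.2% and 29.3% of 4835 genes. The 11 genes of 4000 to under 6000 nt went the other way, with 1 higher and 5 lower (median -0.30). Over the 2704 genes of that length the shares were 22.6% and 43.6% (median -0.19). Of the 3 genes of 6000 to under 8000 nt none was higher and 1 was lower, against 16.3% and 52.4% of 993 genes. No test of these shares was made.

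Markers of several cell types moved with the comparison. Of 20 markers of proliferating cells 18 rose and none fell, and their summed level was 2063 and 2060 FPKM in knockout, against 1076 and 1093 FPKM in control. Mcm7 and Cdc45, of the replicative helicase, stood at 107 and 104 FPKM and at 49.8 and 48.1 FPKM in knockout, against 31.8 and 32.5 FPKM and 12.5 and 12.1 FPKM in control, whereas Mki67 differed by 0.09 (adjusted p = 0.263; 0.57 after removal of the length trend, adjusted p = 0.00125). Ccnb1, the other proliferation marker that did not pass, differed by 0.01 (adjusted p = 0.878). These values stand beside the rises of Uhrf1, Hells and Pcna, of which Pcna is in both lists. Dnmt1 did not pass as deposited (0.15, adjusted p = 0.26), and after removal of the length trend it was at 0.47 (adjusted p = 0.0058). Of the other pathway genes Cdca7 fell (-0.24, adjusted p = 0.0214) and Chaf1a did not pass (-0.13, adjusted p = 0.238). Markers of T and NK cells rose in 10 of 10 tested, with a summed level of 48.3 and 52.4 FPKM in knockout, against 22.7 and 18.3 FPKM in control, markers of B cells were higher in 7 of 8 (38.0 and 70.8 FPKM, against 16.7 and 17.5 FPKM) and macrophage markers rose in 6 of 10 (728 and 852 FPKM, against 586 and 546 FPKM). Squamous epithelium markers fell in 7 of 15 (46.7%, against 33.8% of all genes tested) and none rose. Trp63, Krt1, Krt10, Krt4 and Perp of that list had overlapping groups. Fibroblast markers were higher in 2 of 8 (25%), Thy1 and Sparc, a share below the 30.1% of all genes tested. Their summed level was 183 and 211 FPKM, against 149 and 143 FPKM. Most of it was Sparc, with 152 and 174 FPKM in knockout and 119 and 117 FPKM in control. The groups of Col1a1, Col1a2, Col3a1, Pdgfra, Dcn and Lum overlapped. Salivary gland markers were higher in 6 of 6, making up 0.819% and 0.179% of the table's total in knockout, against 0.00111% and 0.00592% in control. Dcpp3 and Aqp5 of that list were at 0 in control a. Of the B cell markers Cr2 and Pax5, and of the salivary gland markers Pip, Dcpp1 and Dcpp3, passed the filter through knockout alone and could only be called higher, which leaves 5 of 6 and 3 of 3. The markers with the smallest p were Lat and Cd2 for T and NK cells, Cr2 and Cd79b for B cells, Cd68 and C1qc for macrophages, Krt6a and Krt5 for squamous epithelium, Thy1 and Sparc for fibroblasts, and Pip and Amy1 for salivary gland. The part of these cell types in the changes of the 34 genes was not tested.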

How the data were processed

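RNA sequencing of 4 libraries was used, 2 knockout and 2 control. Per the labels' protocols RNA was extracted with Trizol, selected for polyadenylated RNA and made into libraries with a stranded Kapa kit. The submitters' processing notes name TopHat, Cufflinks and mm9. Versions, annotation, strand setting and filters: not given in the sources used here. Values that the authors deposited were read as FPKM, although the sheet is named CPM. Column totals were 592281 to 626719, the smallest value above 0 was 1.8e-05, and the rank correlation of level with transcript length across genes was -0.0847 to 0.0126. Depth is unknown, and whole reads could not be recovered.

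The 12046 genes that reached 1 FPKM in 2 or more libraries were fitted on log2(FPKM + 1) with limma 3.58.1 in R 4.3.3 (eBayes with a trend, 2 residual and 2.93 prior degrees of freedom), two-sided, adjusted by Benjamini-Hochberg over all genes tested. Fold changes understate the change of low genes. The fit was tested only on simulated data with few changed genes and no trend with length, unlike the data used here. Transcript lengths (99.1% of genes matched) and exon overlaps came from GENCODE M21 on GRCm38, not the authors' models, and promoters from RefSeq on GRCm38.p6. Exons of 13 of the 34 genes overlap another annotated gene, 2 of them on the same strand. Members and lists were chosen with earlier results of these data known. All members were described; of each pathway list the 3 genes with the smallest p were named, and others are marked. Alternatives were other pseudocounts, filters, scalings and variance models, removal of the length trend with a lowess fit (span 0.3), and leaving out each library.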

Additional observations from a re-analysis of the deposited data

How the results depend on the processing

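Of the 7 genes called higher in knockout 3, and of the 12 called lower 8, kept their call and direction under every alternative that tested them; 1 of the 8, Dnmt3b, was tested through control alone and is no support. Removing the length trend raised the number of the 34 genes called higher to 16 and of other pathway genes to 20. Over all genes the share called higher was then 32.4%, against 30.1% as deposited. Leaving out 1 library gave 3 (without control a) to 14 (without knockout 2) called higher and 8 to 15 called lower; for other pathway genes it gave 10 to 12 higher and 16 to 31 lower, and over all genes 2437 to 3691 higher and 2808 to 4455 lower. With a control left out the lone sample is assumed to vary like the others: 11 of the 19 called genes remained without control a and 13 without control b. Genes that did not pass changed sign in few settings: with the length trend removed Ehmt1 was at 0.02, Kdm3b at 0.22 and Ash1l at 0.44; with quantile normalization Cbx3 was at -0.06 and Ash1l at 0.02; leaving out 1 library gave -0.29 to 0.03 for Kdm3b, -0.10 to 0.18 for Cbx3, -0.04 to 0.07 for Whsc1l1, -0.16 to 0.02 for Ash1l and -0.03 to 0.15 for Kdm4b. For these changes the cause was not tested. The filter of 5 FPKM left Phf8 and Dnmt3b untested. No paired analysis was possible because the control columns carry no replicate number of their own.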
